A study of Homo sapiens with 414 samples.

Results

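Neural progenitor genes were followed here through a neurotoxicity screen on human neural cultures. The 10 genes are SOX1, SOX2, SOX9, PAX6, NES, VIM, FABP7, MSI1, PROM1 and LIX1, of 19084 genes in the deposited table. They were taken by name as genes expressed in neural progenitors and not by a rule on values, though earlier results of these data were known. All 10 passed the filter of at least 1 TPM in at least 5 libraries, which left 16318 genes for testing, and none of the 10 was listed at 0 in any of the 414 libraries. TPM is a gene's share of the transcripts of a library after division by transcript length, scaled so that a library sums to the same total as every other.

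The cells were H1-NPC, neural progenitor cells derived from H1, an established human embryonic stem cell line. They were expanded for 5 days with the growth factor FGF2 at 5 ng/ml, seeded in 48-well plates without it, and given a compound from the day of seeding until lysis on 1 of 11 days between day 1 and day 39. Sequenced RNA came from 266 wells with 1 of 29 compounds that the labels class as toxic, and the remaining libraries came from 16 compounds classed as non-toxic, among them DMSO at 0.1%. Each compound was used at 1 dose and gave at most 1 library per day, so a day of the non-toxic class held 7 to 16 libraries and its replicates were wells with different compounds. The non-toxic compounds were acetaminophen (10 µg/ml), amoxicillin (5 µg/ml), aspirin (20 µg/ml), DMSO, glucosamine (0.4 µg/ml), ibuprofen (20 µg/ml), naproxen sodium (30 µg/ml), PVP (100 µg/ml), and, each at 10 µM, Ficoll 400, fructose, glycerol, glyphosate, PEG 3350, saccharin, sorbitol and sucrose. Whether wells came from separate cultures is not stated, so p-values measure the spread between these wells only. A compound's replicates were its libraries of different days, so its p-values also take in how its difference changed over days.

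Neural progenitors are dividing cells that line the forming brain and give rise to neurons first and to glia later. The transcription factors SOX1, SOX2 and PAX6 keep neuroepithelial cells in that state, SOX9 accompanies the step towards glia, and the proteins of NES and VIM form the filaments of the long radial processes. FABP7 carries fatty acids in radial glia, MSI1 binds RNA and dampens differentiation signals, PROM1 sits on membrane protrusions of the apical surface, and LIX1 was named for its expression in the developing limb and nervous system.

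Promoters of 2 members are shown because each holds the core of the sequence that SOX proteins bind, and SOX2 itself is one of those proteins. The motif searched was ACAAAG on both strands within 250 bases upstream of each gene start, taken from the RefSeq promoter table for GRCh38.p14, and capitals mark it.
SOX2, chr3:181711675-181711924, plus strand: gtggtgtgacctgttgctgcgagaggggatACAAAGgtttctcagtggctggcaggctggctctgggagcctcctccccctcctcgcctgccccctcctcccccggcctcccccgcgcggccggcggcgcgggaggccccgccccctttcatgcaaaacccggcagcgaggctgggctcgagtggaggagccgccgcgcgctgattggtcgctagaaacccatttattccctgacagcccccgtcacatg
FABP7, chr6:122779466-122779715, plus strand: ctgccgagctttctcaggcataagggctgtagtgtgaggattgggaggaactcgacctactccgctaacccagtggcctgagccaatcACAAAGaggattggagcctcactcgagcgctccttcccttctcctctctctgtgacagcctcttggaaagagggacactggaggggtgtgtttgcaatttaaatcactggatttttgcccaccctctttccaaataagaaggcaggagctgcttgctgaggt
The motif began 220 bases before the SOX2 start and 162 bases before that of FABP7. Among the 18 promoters found for 7 members, 5 promoters of 3 members held it (SOX2, FABP7 and 3 of 9 for PAX6), and so did 13.7% of the 35116 promoters searched. A match is a description of these letters and not a binding site. The promoters of SOX9, MSI1 and LIX1 were not analysed here.

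Each difference is given as log2(TPM + 1) in a group less its reference, with ± SE, and a mean TPM carries ± SD. A gene rose or fell where the limma p-value, adjusted by the Benjamini-Hochberg method over all 16318 tested genes, was under 0.05. In these bulk cultures a fall cannot be told apart between fewer progenitors and less RNA of the gene per cell. Read counts were not analysed, so the depth behind a TPM is unknown.

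Some libraries stood apart from the rest. The slope of a library's deviation on log2 transcript length was below -0.15 in 23 libraries, 22 of them toxic, and the extremes were maneb on day 1 (-0.5509), monosodium glutamate on day 1 (-0.5064) and the non-toxic compound ibuprofen on day 8 (-0.438). The slope also went with class and day. It was below -0.15 in 11 of 19 toxic libraries on day 21 (median -0.1852) and 4 of 21 on day 15. No non-toxic library of these days was, so late comparisons of toxic compounds include this difference. Such a slope means that long transcripts were low relative to short ones, and the length in GENCODE 29 was 1312.5 bases for VIM and 1556 for FABP7 but 5558 for NES. The vincristine library of day 4 had no such slope (0.0254) but the most genes at 1 TPM (17188, against 13314 to 13406 in the non-toxic libraries of that day). In it the 5 pluripotency markers summed to 433 TPM, against 27.0 to 41.9.

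In the non-toxic cultures the members followed different courses, and day 1 to day 39 separated SOX1, NES and MSI1, which fell, from FABP7 and LIX1, which rose. Of the 10 members 6 rose and 4 fell between these days, where 44.3% of all tested genes rose and 39.3% fell. On day 1 the order of levels was VIM (3320 ± 73.9 TPM), NES (1642 ± 34.2), MSI1 (346 ± 13.6), SOX2 (291 ± 10.1), SOX1 (148.3 ± 6.08), FABP7 (131 ± 8.81), SOX9 (116 ± 5.26), PROM1 (47.6 ± 1.96), PAX6 (7.20 ± 0.760) and LIX1 (2.62 ± 0.445), each over 16 libraries. PAX6, a defining factor of forebrain progenitors, was thus low throughout, and OTX2, a factor of the anterior brain, had a median of 1.72 TPM over the non-toxic libraries. The pluripotency factor POU5F1 had a median of 1.16 TPM.

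**Figure D1:**
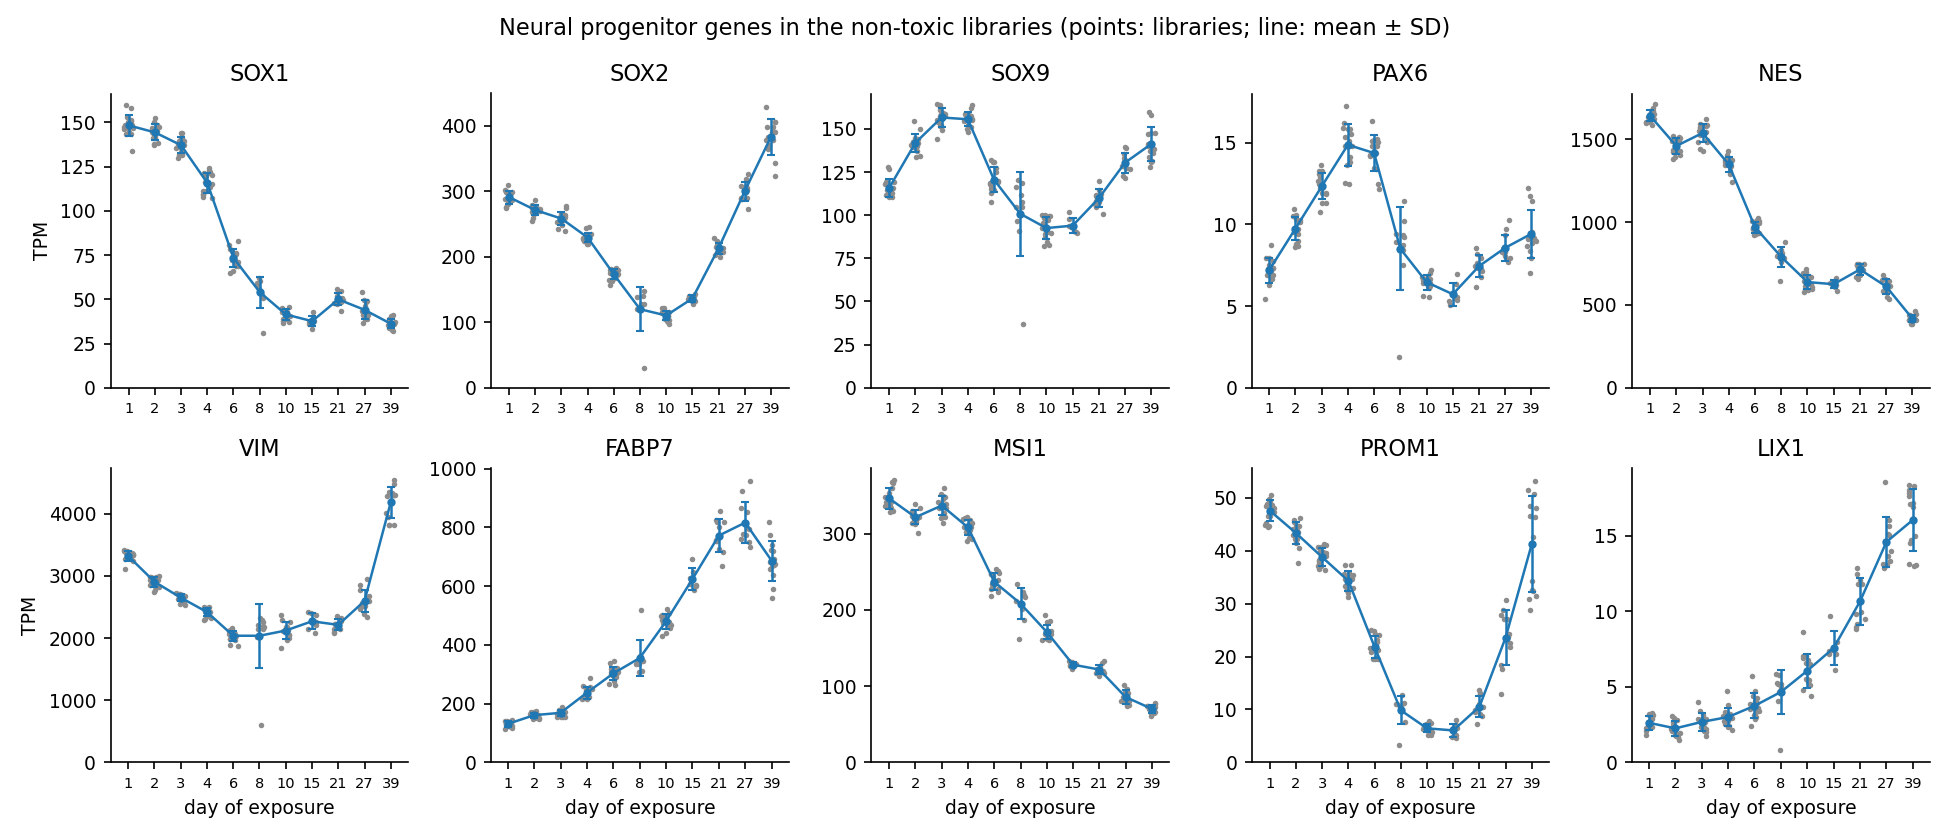
TPM of the 10 members (vertical axes, each from 0) on the 11 sampling days (horizontal axis, evenly spaced) in the non-toxic libraries; grey points are libraries and the line gives mean and SD. SOX1, NES and MSI1 fell, FABP7 and LIX1 rose, SOX2, VIM and PROM1 passed through a low point, and the point far from the others on day 8 in 7 panels is the ibuprofen library.

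SOX1, an early neuroectodermal SOX factor, ranged from 134 to 160 TPM on day 1 (median 148.01), from 36.6 to 45.9 on day 10 (median 41.7) and from 32.2 to 41.2 on day 39 (median 36.1). The day 1 libraries did not overlap with either later day. Its largest step was from day 4 to day 10, with a difference of -1.46 ± 0.04 (limma adjusted p = 1.21e-69). From day 10 to day 21 it rose slightly, by 0.26 ± 0.05, and then fell by 0.45 on the log2 scale to day 39.

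SOX2, which is also a factor of radial glia and of astrocytes, moved down and up again. Its libraries ranged from 274 to 310 TPM on day 1 (median 289), from 96.9 to 122 on day 10 (median 110) and from 323 to 429 on day 39 (median 387). The 3 days did not overlap, and day 39 was the highest of the course. The differences were -1.05 ± 0.07 from day 4 to day 10, 0.94 ± 0.07 from day 10 to day 21 and 0.84 ± 0.07 from day 21 to day 39. SOX9 took the same turn at a smaller size, after an early rise of 0.42 ± 0.05 to 156 ± 4.13 TPM on day 4. It lay between 82.1 and 100 TPM on day 10 (median 92.7) and between 128 and 160 on day 39 (median 139), and its day means spanned 1.69-fold in all.

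PAX6 rose early, from 7.20 ± 0.760 TPM on day 1 to 14.9 ± 1.30 on day 4, a difference of 0.95 ± 0.07 (limma adjusted p = 6.37e-27). Its libraries ranged from 5.41 to 8.76 TPM on day 1 and from 12.5 to 17.2 on day 4, without overlap. It then fell by 1.09 on the log2 scale to day 10. Of the 10 steps between neighbouring day means in rank order, 7 were within 1 SD for PAX6, so its late order of days is not resolved.

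The filament genes parted from each other. NES ranged from 1587 to 1711 TPM on day 1 (median 1639), from 578 to 715 on day 10 (median 626) and from 383 to 462 on day 39 (median 412), again without overlap. Its differences were -1.08 ± 0.03 from day 4 to day 10 and -0.77 ± 0.03 from day 21 to day 39. The rise of NES from day 10 to day 21, 0.16 ± 0.03, became -0.01 when each library was centred on its median. VIM lay between 3115 and 3417 TPM on day 1 (median 3328), between 1833 and 2377 on day 10 (median 2135) and between 3819 and 4537 on day 39 (median 4300), and these days did not overlap. Its rise from day 21 to day 39 was 0.92 ± 0.07 (limma adjusted p = 2.25e-27), and from day 10 to day 21 it was not called (0.06 ± 0.06).

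MSI1, whose product is an RNA-binding protein of stem cells, fell in each of the 4 steps. It ranged from 328 to 371 TPM on day 1 (median 341), from 160 to 194 on day 10 (median 168) and from 61.2 to 78.5 on day 39 (median 70.8), without overlap. Its difference from day 1 to day 39 was -2.29 ± 0.03 (limma adjusted p = 1.17e-112), and 1 of its 10 steps between neighbouring day means was within 1 SD.

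FABP7 and LIX1 climbed. FABP7 ranged from 113 to 144 TPM on day 1 (median 132), from 429 to 522 on day 10 (median 483) and from 560 to 819 on day 39 (median 678). Its day means peaked at 816 TPM on day 27, 6.24 times the lowest, and the step from day 21 to day 39 was -0.17 ± 0.05, or -0.05 and not called after centring on library medians. LIX1 ranged from 1.79 to 3.24 TPM on day 1 (median 2.52) and from 12.98 to 18.34 on day 39 (median 16.98). The LIX1 difference between these days was 2.24 ± 0.09, and its step from day 1 to day 4 was not called (0.14 ± 0.09).

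PROM1 had a deep trough, and its day means spanned the widest range of the 10 genes. Its libraries lay between 44.6 and 50.6 TPM on day 1 (median 48.0), between 5.11 and 7.73 on day 10 (median 6.40) and between 28.7 and 53.1 on day 39 (median 44.5). Day 39 overlapped with day 1, and day 10 with neither. The differences were -2.25 ± 0.08 from day 4 to day 10 and 1.87 ± 0.09 from day 21 to day 39, and the highest day mean was 7.88 times the lowest.

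Read against the background, 3 members rose and 6 fell from day 1 to day 4, where 26.1% of all tested genes rose and 29.7% fell. From day 4 to day 10 they numbered 2 and 8 (background 32.8% and 35.8%). From day 10 to day 21 8 rose and 1 fell (49.6% and 12.5%), of which PAX6 (0.18) and NES (0.16) became 0.01 and -0.01 and lost their calls after centring on library medians, and from day 21 to day 39 6 rose and 4 fell (28.8% and 42%). The median member difference was -0.95 from day 4 to day 10, beside 0.00 over all tested genes. Among 25 companion genes of neural progenitors, 4 rose and 16 fell over that step, with TNC (1.91), a matrix protein of radial glia, and HES1 (1.10), a Notch effector, highest, and HMGA2 (-2.48), a chromatin protein of young progenitors, and ASPM (-2.14), a spindle protein, lowest. From day 1 to day 39 10 companions rose and 12 fell, led by HOPX (4.51), a marker of outer radial glia, and TNC (3.46).

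Markers of other cell types moved over the same days. The summed TPM of 10 neuronal markers had medians of 3066 on day 1, 8675 on day 10 and 5650 on day 39. Those of 7 astrocyte markers were 203, 172 and 4568, and those of 6 markers of dividing cells 1689, 326 and 200. The neuronal and astrocyte sums weigh highly expressed genes most. From day 10 to day 39 the means of TUBB3 (4068 to 1690 TPM), DCX, STMN2, MAP2, ELAVL4 and GAP43 went down. Those of NEFL (56.8 to 268), SYT1, SNAP25 and RBFOX3 went up. GFAP alone averaged 3530 TPM on day 39, while SLC1A2 averaged 37.1 TPM on day 1 and 36.4 on day 39. VIM is also expressed by mesenchymal cells, and the summed level of 9 mesenchymal markers went from 2415 through 649 to 7253. Their part in the members' courses was not tested.

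For each toxic compound the reference was the non-toxic libraries sampled on matching days, and all these comparisons share those controls. Over all days, of 28 toxic compounds with more than 1 library, 14 had at least 5 members called, 6 had 1 to 4 and 8 had none. Of the 16 non-toxic compounds compared in the same way with the others, 15 had no member called. Ibuprofen had 6 that fell, where 29.2% of all tested genes fell, and none without its day 8 library, an alternative chosen after the data were seen.

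**Figure D2:**
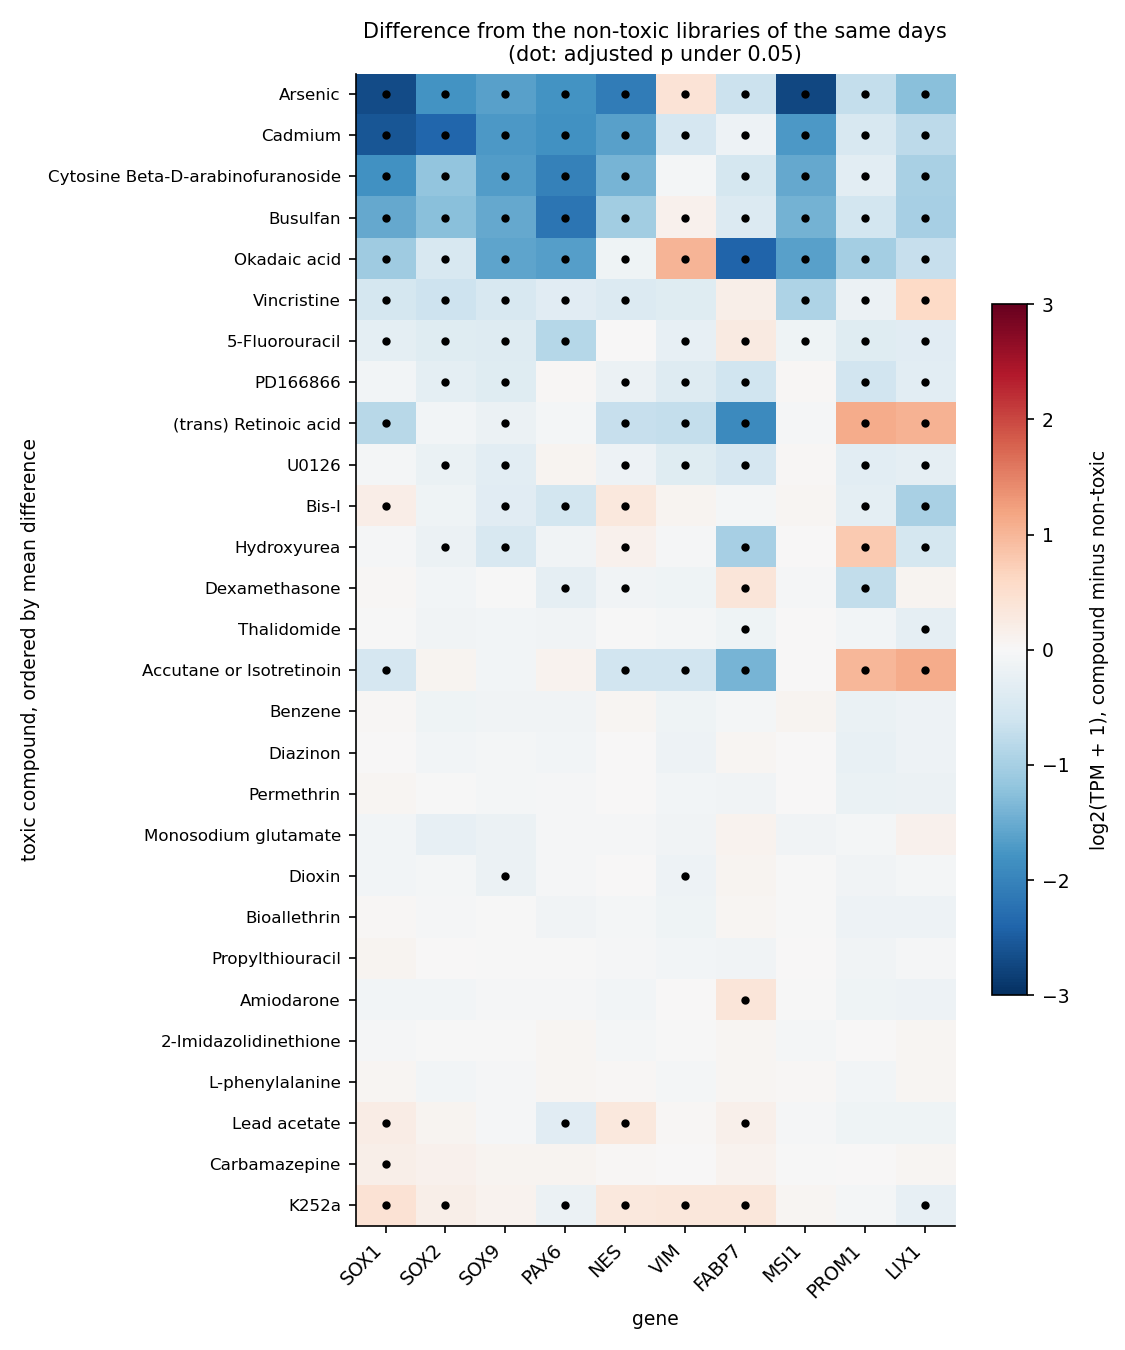
Differences of the 10 members (columns) between each of 28 toxic compounds (rows, ordered by their mean difference) and the non-toxic libraries of the same days, as colours from -3 (blue) to 3 (red) on the log2 scale of TPM plus 1; a black dot marks an adjusted p under 0.05. Arsenic and cadmium head the rows with SOX1 at -2.68 and -2.56, and the retinoids combine low FABP7 with high PROM1 and LIX1.

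Retinoids are vitamin A derivatives that act on gene expression through nuclear receptors and pattern the hindbrain and spinal cord. Trans retinoic acid (1.7 µM) and isotretinoin (0.5 µg/ml, which is 1.66 µM) are isomers that differ in the geometry of 1 double bond, and each gave 11 libraries. Under trans retinoic acid 2 members rose and 5 fell, where 21.2% of all tested genes rose and 26.4% fell. Under isotretinoin 2 rose and 4 fell (20.2% and 21%).

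FABP7 was the member that fell most under both. Its TPM under trans retinoic acid had a lowest value of 27.2, a median of 103 and a highest of 282, and every library lay below the range of the non-toxic libraries of its day. In isotretinoin libraries these values were 41.1, 125 and 416, again below the range on all 11 days. Relative to the non-toxic mean of the day, FABP7 was lowest on day 4, at 15.6% and 20.1%, and highest on day 39, at 41.1% and 55.2%. The differences were -1.92 ± 0.05 (limma adjusted p = 1.78e-72) and -1.39 ± 0.06 (4.875e-53).

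PROM1 under the retinoids lay near the level of the control cultures through day 6 and above it from day 8 on. It measured 20.1, 53.2 and 102 TPM (lowest, median, highest) under trans retinoic acid and 16.95, 49.8 and 71.3 under isotretinoin. Through day 6 its levels were between 0.63 and 1.23 times the non-toxic mean of the day. On day 8 they were 2.40 and 2.29 times that mean, on day 15, where controls averaged 6.03 TPM, 11.7 times under each, and on day 39 2.32 and 1.73 times. The differences over all days were 1.12 ± 0.13 and 1.01 ± 0.13. Late minus early, the difference of days 8 to 39 less that of days 1 to 6, was 2.14 ± 0.16 and 1.92 ± 0.17.

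LIX1 rose in 2 episodes. On days 1 and 2 trans retinoic acid had 7.10 and 7.08 TPM and isotretinoin 6.44 and 6.02, against 2.62 ± 0.445 and 2.25 ± 0.497 in controls. On day 6 the levels were 3.72 and 4.15 TPM, within the non-toxic range, and on day 39 51.7 and 39.8, against 16.03 ± 2.05. The LIX1 differences over all days were 1.05 ± 0.10 and 1.12 ± 0.10.

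SOX1, NES and VIM were lower under both retinoids. SOX1 had TPM of 14.6, 30.4 and 129 (lowest, median, highest) under trans retinoic acid, below the non-toxic range on all 11 days, and 19.4, 36.2 and 139 under isotretinoin, below it on 9. The SOX1 differences were -0.84 ± 0.05 and -0.51 ± 0.05, those of NES -0.70 ± 0.04 and -0.57 ± 0.05, and those of VIM -0.71 ± 0.06 and -0.57 ± 0.06. On day 39 NES measured 150 and 152 TPM, against 418 ± 22.6 in controls. SOX2, PAX6 and MSI1 were not called for either isomer over all days, but PAX6 and MSI1 shifted between the windows. Late minus early was 0.71 ± 0.13 and 0.77 ± 0.13 for PAX6, and 0.63 ± 0.05 and 0.49 ± 0.05 for MSI1.

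**Figure D3:**
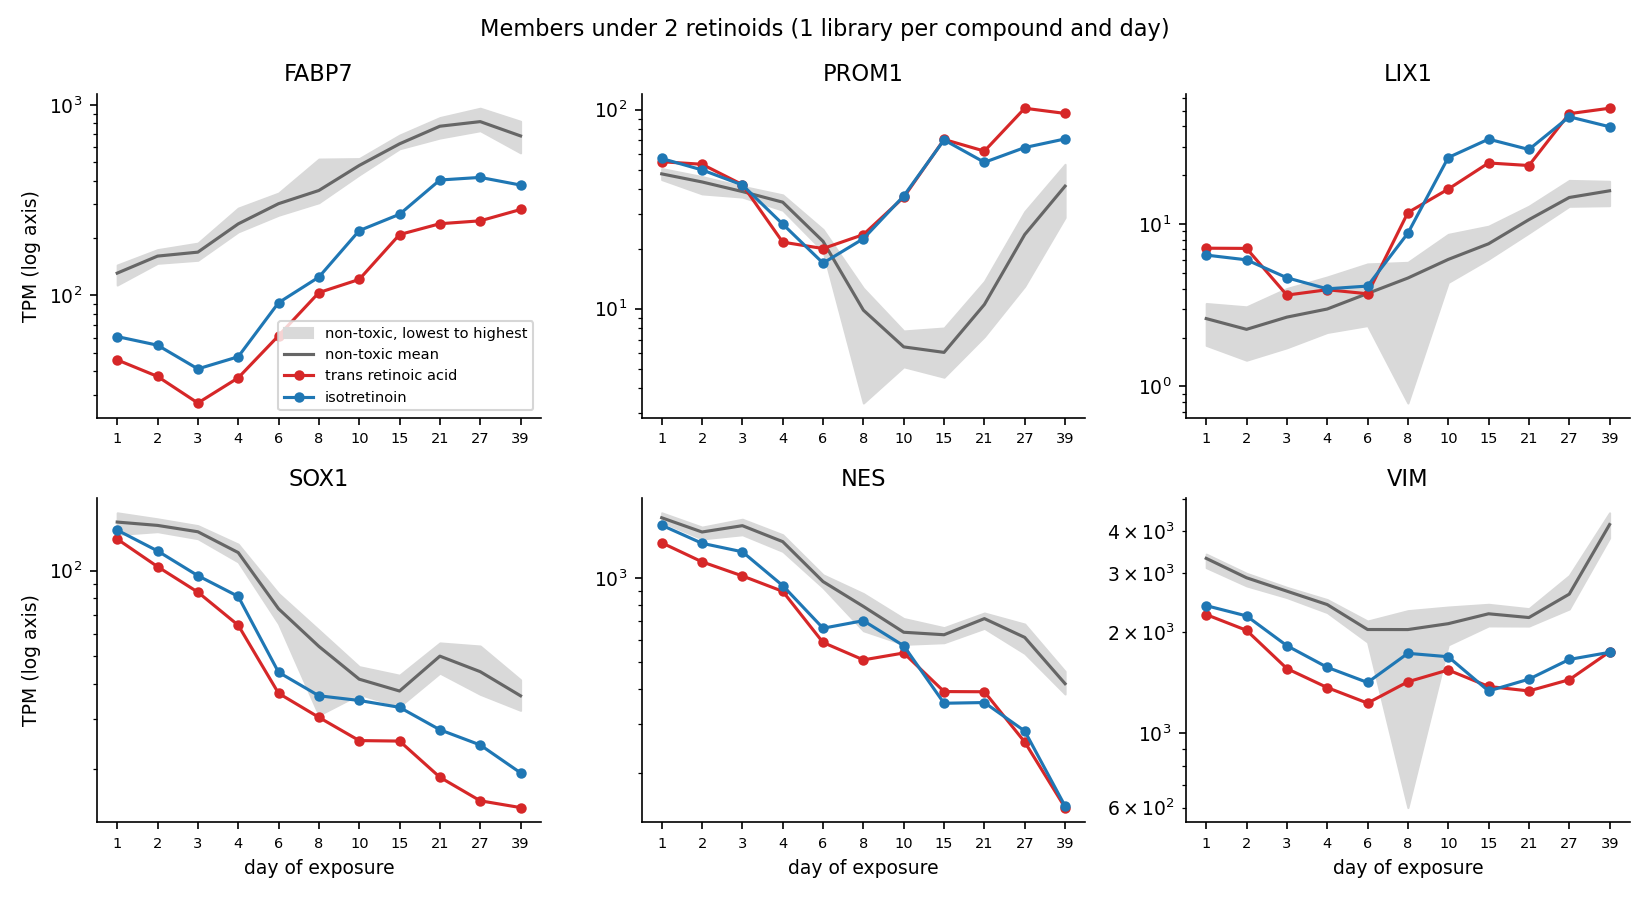
TPM on a log axis of FABP7, PROM1, LIX1, SOX1, NES and VIM on the 11 sampling days under trans retinoic acid (red) and isotretinoin (blue), 1 library per compound and day, with the mean (grey line) and the lowest to highest value (grey band) of the non-toxic libraries. FABP7 lies below the band on every day under both, and PROM1 leaves it upwards from day 8 on. On day 8 the ibuprofen library is the low edge of the band for PROM1, LIX1, SOX1 and VIM and the high edge for FABP7. The low edge for NES on that day is the amoxicillin library.

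A direct comparison of the isomers on the 11 shared days asked whether they differed on the members. SOX1 and FABP7 were lower under trans retinoic acid, by differences of -0.33 ± 0.05 (limma adjusted p = 0.00729) and -0.53 ± 0.05 (0.00115). These are 2 members of 10, where 0.527% of all tested genes fell, and without day in the fit both differences were the same size but not called. The other members were not called, with 95% intervals, unadjusted, from -0.04 to 0.27 for PROM1, -0.27 to 0.15 for LIX1, -0.13 to 0.05 for MSI1, -0.30 to -0.02 for SOX2, -0.22 to 0.01 for SOX9, -0.33 to 0.02 for PAX6, -0.24 to -0.02 for NES and -0.21 to -0.07 for VIM. A missed threshold does not show that the isomers acted alike. Only this pair was compared. The companion genes moved under both, 5 up and 13 down under trans retinoic acid and 9 up and 5 down under isotretinoin, with TNC lowest (-2.24 and -1.99) and NR2E1, an orphan receptor of neural stem cells, raised (1.38 and 1.49).

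Arsenic (5 µM) and cadmium (50 µM), metal poisons sampled on days 1, 2, 3, 4 and 6, gave the 2 lowest medians over the members. With arsenic 1 member rose and 9 fell, where 34.8% of all tested genes rose and 46.7% fell. With cadmium 10 fell (24.6% and 59.4%), of which VIM, FABP7 and PROM1 changed sign and LIX1 lost its call (-0.12) after centring on library medians. With the length slope as a covariate FABP7 and LIX1 were not called with cadmium (-0.19 each). The median member difference was -1.71 and -1.67, beside -0.11 and -0.40 over all tested genes.

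With arsenic MSI1 measured 73.3, 64.2, 60.9, 47.2 and 14.03 TPM on the 5 days, a difference of -2.73 ± 0.08 (limma adjusted p = 5.48e-49). SOX1 measured 13.8, 23.7, 24.6, 24.9 and 8.92 TPM, a difference of -2.68 ± 0.06, and NES 344, 370, 336, 328 and 244 TPM, a difference of -2.09 ± 0.03. All 15 values lay below the non-toxic range of their day. VIM went the other way, with 3944, 3191, 2980, 3443 and 4079 TPM, above the range on every day, and a difference of 0.41 ± 0.04. With the length slope as a covariate the VIM value was -0.06 and no longer called, and arsenic libraries of days 4 and 6 were among the 23 of steep slope (-0.1665 and -0.1885).

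The other cell types' markers moved under arsenic as well. All 9 mesenchymal markers rose, and their sum reached 2374 to 19818 TPM (median 10404), against 525 to 2634 in the non-toxic libraries of days 1 to 6. TWIST1 among them was listed at 0 in 5 non-toxic libraries. Of 10 neuronal markers 8 fell and of 6 markers of dividing cells 6. Their part in the member values was not tested.

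Cadmium differed in its course. SOX2 measured 25.7, 33.8, 49.5, 62.3 and 69.4 TPM on days 1 to 6, or 8.85% of the non-toxic mean on day 1 and 40.1% on day 6, a difference of -2.39 ± 0.09. SOX1, at 12.5, 16.7, 20.4, 27.4 and 24.5 TPM, differed by -2.56 ± 0.09, and PAX6, at 2.22, 2.49, 2.17, 2.48 and 3.05 TPM, by -1.83 ± 0.07. These 15 values were all below the range. PROM1 went from 15.7 TPM on day 1, below it, to 50.1 on day 6, above it. Centring each library on its median turned 3 of the smaller falls to 0.17 for VIM, 0.51 for FABP7 and 0.17 for PROM1, so no direction is given for these.

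The arsenic and cadmium companions split in the same comparisons. HES5, the Notch effector of neuroepithelium, was lowest at -5.67 and -2.90, while HES1, another Notch effector, was raised at 2.73 and 3.66. In all 8 companions rose and 16 fell with arsenic, and 4 rose and 21 fell with cadmium.

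Busulfan (50 µg/ml), which alkylates DNA, and cytosine beta-D-arabinofuranoside (5 µM, cytosine arabinoside), which stops DNA synthesis, had libraries on the same 5 days. With busulfan 1 member rose and 9 fell (background 29.5% and 35.1%), and with cytosine arabinoside 9 fell and none rose (27.2% fell, 40.9% rose). PAX6 fell most with both. It measured 3.14, 3.24, 1.32, 0.890 and 0.780 TPM with busulfan, a difference of -2.20 ± 0.12, and 4.44, 2.87, 1.22, 0.910 and 1.70 TPM with cytosine arabinoside, a difference of -2.04 ± 0.12. All 10 values were below the range, and on day 4 they stood at 5.98% and 6.12% of the control mean.

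SOX9 measured 76.1, 64.01, 34.6, 41.9 and 29.9 TPM with busulfan and 64.4, 55.5, 44.4, 28.8 and 29.6 with cytosine arabinoside, with differences of -1.54 ± 0.07 and -1.67 ± 0.07. SOX1 measured 104, 62.5, 32.4, 26.9 and 19.4 TPM and 71.3, 63.1, 25.0, 18.6 and 20.0, with differences of -1.54 ± 0.08 and -1.81 ± 0.08. These 20 values too were below the range of their day, and the ratio to controls was highest on day 1 for both genes under both agents. VIM under busulfan, at 2887, 2660, 3016, 3001 and 2788 TPM, differed by 0.12 ± 0.04, which was no longer called when the library of day 4 or 6 was left out in turn (range 0.04 to 0.21 over the 5 omissions). Under cytosine arabinoside VIM was not called (-0.05 ± 0.05).

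Mesenchymal markers rose with both agents, 9 of 9 each, to sums of 3769 to 12206 TPM with busulfan and 3184 to 9145 with cytosine arabinoside, against 525 to 2634. Of 7 astrocyte markers 5 and 6 rose, with highest sums of 716 and 976 TPM, against 218 in controls. Their part was not tested. HES5 was again lowest of the companions (-5.03 and -5.70) and TNC highest (2.75 and 3.99).

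Okadaic acid (3 nM), an inhibitor of serine and threonine phosphatases, gave 1 member that rose and 9 that fell (background 35.1% and 39.8%). FABP7 measured 103, 104, 38.4, 17.8 and 6.73 TPM on days 1, 2, 3, 4 and 6, while control means went from 131 to 303. Its difference was -2.40 ± 0.22, and all 5 values were below the range. PAX6, at 6.82, 6.74, 2.08, 1.67 and 0.780 TPM, differed by -1.66 ± 0.15, and MSI1, at 251, 190, 109, 55.4 and 32.8 TPM, by -1.62 ± 0.11.

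VIM rose under okadaic acid more than under any other compound fitted. It measured 5445, 6100, 6389, 4679 and 4264 TPM, above the range on each day, a difference of 1.01 ± 0.03 (limma adjusted p = 9.46e-47). Of 9 mesenchymal markers 2 rose and 5 fell, with sums from 1174 to 2351 TPM, inside the non-toxic range for days 1 to 6. With the length slope as a covariate 4 members were called instead of 10, SOX2, NES and PROM1 turned to 0.06, 0.31 and 0.15, and FABP7 and PAX6 were no longer called, at -0.11 and -0.17. The day 6 library had a slope of -0.1922, and NES was -0.13 ± 0.04 with it and -0.01 and not called without it. The other members kept their direction and their calls without that library.

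**Figure D4:**
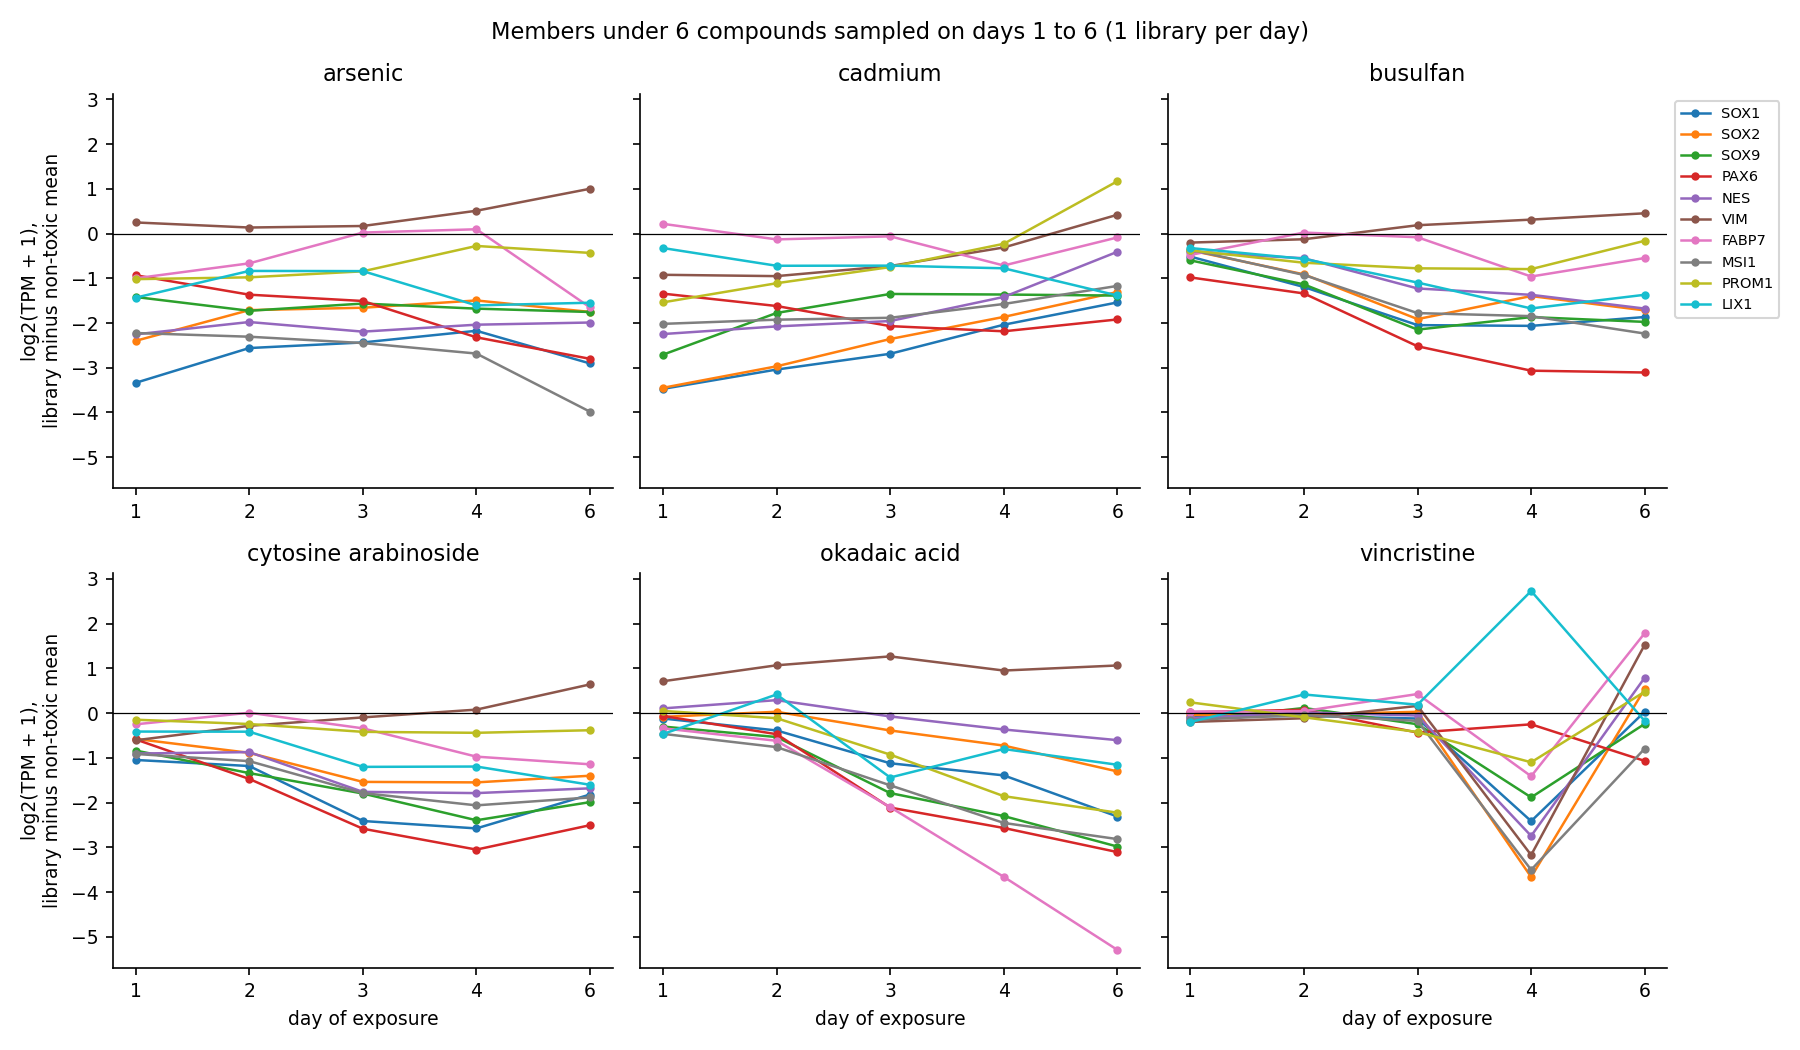
Deviation of each member from the non-toxic mean of the day, on the log2 scale of TPM plus 1 (vertical axis), on days 1, 2, 3, 4 and 6 under 6 compounds, 1 library per point. Under busulfan, cytosine arabinoside and okadaic acid most members sink after day 1, under cadmium SOX1 and SOX2 climb back towards 0, VIM stays above 0 under arsenic and okadaic acid, and the day 4 library of vincristine stands apart.

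Vincristine (1 nM), which blocks microtubule assembly, included a day 4 library whose markers went against the labelled cell type. With the library labelled vincristine day 4 in the fit 1 member rose and 7 fell (background 33.1% and 37.9%), and without it 4 rose and 3 fell (15% and 18.7%). In that library SOX2 measured 17.2 TPM, beside 283, 266, 263 and 252.5 on days 1, 2, 3 and 6. NES measured 200.3 TPM, beside 1516, 1478, 1482 and 1682, and LIX1 25.3, beside 2.13, 3.29, 3.14 and 3.14. POU5F1, NANOG, LIN28A and TDGF1, genes of pluripotent cells, stood at 138, 96.8, 99.2 and 72.5 TPM there. For these genes no non-toxic library of that day exceeded 2.30 TPM. DPPA4, the remaining pluripotency marker, measured 25.96 TPM, inside the non-toxic range of 24.93 to 37.95. In the same library the 5 epithelial markers summed to 538 TPM, against 6.37 to 15.3, with EPCAM at 0. Whether this library is the labelled sample was not tested. SOX2 differed by -0.63 ± 0.18 with this library and rose by 0.13 ± 0.04 without it (limma adjusted p = 0.0143), NES by -0.42 and 0.16 (0.0148), PROM1 by -0.18 and 0.05, SOX1 by -0.53 and -0.06, and LIX1 by 0.59 and 0.06. MSI1 kept a call either way (-0.93 and -0.29), as did PAX6 (-0.33 and -0.35) and SOX9 (-0.48 and -0.13). With the library in and each library centred on its median, PAX6 (-0.13) and NES (-0.22) were not called.

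Day 6 of vincristine was also far from controls for FABP7 and VIM. FABP7 measured 134, 166, 227, 88.3 and 1046 TPM on the 5 days, so day 6 was 3.46 times the control mean, and VIM on day 6 was 5880 TPM, or 2.89 times. FABP7 and VIM were not called over the 5 days (0.18 ± 0.13 and -0.36 ± 0.18), and without day 4 both rose, by 0.57 ± 0.10 (limma adjusted p = 1.31e-05) and 0.34 ± 0.09 (0.00247).

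5-Fluorouracil (10 µM), which depletes thymidylate, was sampled on days 1, 2, 3, 4, 6, 27 and 39, and 1 member rose while 8 fell (background 39.6% and 19.1%). PAX6 was lowest, at 3.63, 5.47 and 7.79 TPM (lowest, median, highest), below the range on all 7 days, with a difference of -0.86 ± 0.07. FABP7 changed sides. It was 1.30, 1.76, 2.38 and 2.63 times the control mean on days 2, 3, 4 and 6, reaching 795 TPM, and 0.52 and 0.48 times on days 27 and 39. Its difference over all days, 0.26 ± 0.10, averages over that turn and was not called after centring (0.18) or with the length slope as a covariate (0.20). SOX9 differed by -0.39 ± 0.07 and PROM1 by -0.37 ± 0.09. On day 39 SOX9 stood at 38.1% of the control mean and SOX2 at 30.3%, while both had been between 0.88 and 1.37 times that mean on days 1 to 6.

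Hydroxyurea (250 µM), which inhibits ribonucleotide reductase, was sampled on all 11 days, with 2 members up and 4 down (28.9% and 23.2%). FABP7 had 82.6, 152 and 432 TPM (lowest, median, highest), below the range on all 11 days, with a difference of -0.996 ± 0.049 (limma adjusted p = 1.003e-41). PROM1 rose by 0.79 ± 0.10 and was furthest from controls on day 10, at 34.4 TPM, or 5.34 times. All 6 markers of dividing cells rose with it, to 1634 to 2134 TPM on days 1 to 6, against 686 to 1739, and all 9 mesenchymal markers rose, to a median of 6237 TPM on days 8 to 39, against 2464. Their part was not tested. NES rose by 0.13 ± 0.04. LIX1 differed by -0.54 ± 0.09 and SOX9 by -0.48 ± 0.05, and PAX6 turned from 0.50 times the control mean on day 4 to 2.13 times on day 15.

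PD166866 (2.5 µM), an FGF receptor inhibitor, and U0126 (10 µM), an inhibitor of the kinase MEK downstream of it, gave 10 libraries each. No member rose and 7 fell with each (background 8.98% rose and 15.1% fell for PD166866, 6.55% and 15.3% for U0126). With PD166866 FABP7 had 99.4, 248 and 497 TPM (lowest, median, highest), below the range on all 10 days, and a difference of -0.61 ± 0.04. PROM1, at 4.20, 13.8 and 44.4 TPM, differed by -0.57 ± 0.08, and VIM, at 1431, 1896 and 3045 TPM, by -0.40 ± 0.04.

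With U0126 FABP7 had 105, 215 and 797 TPM, below the range on 8 days, and a difference of -0.50 ± 0.05. VIM differed by -0.35 ± 0.06 and PROM1 by -0.32 ± 0.09. On day 27 PROM1 stood at 32.9% of the control mean with PD166866 and at 28.1% with U0126. PAX6 was not called for either compound over all days, but on day 39 with U0126 it measured 28.5 TPM, the highest of all 414 libraries, against 9.42 ± 1.46. U0126 lowered 8 of 9 mesenchymal markers, to a median of 646 TPM on days 8 to 39, against 2464, and PD166866 lowered 2. Of 7 astrocyte markers 6 and 5 fell. Their part in the values of VIM and FABP7 was not tested. The companion LHX2, a forebrain factor, rose under both (by 1.08 with PD166866 and 0.85 with U0126).

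K252a (30 nM), a protein kinase inhibitor, and the compound labelled Bis-I (4 µM) had libraries on all 11 days. With K252a 5 members rose and 2 fell (18.7% and 16.7%). SOX1, at 56.1, 90.1 and 137 TPM (lowest, median, highest), differed by 0.43 ± 0.06 and was above the range on 7 days. It was 0.89 to 1.07 times the control mean through day 6 and 1.55 to 1.97 times from day 8 on, with late minus early at 0.87 ± 0.07 (limma adjusted p = 1.48e-20). FABP7, at 151, 462 and 1301 TPM, differed by 0.35 ± 0.04, and VIM, at 2629, 3265 and 3704 TPM, by 0.34 ± 0.06. LIX1 (-0.24 ± 0.09) and PAX6 (-0.18 ± 0.07) fell, and neither was called with the length slope as a covariate (-0.15 and -0.10). Neuronal markers fell in 8 of 10, to a median sum of 5998 TPM on days 8 to 39, against 7314, and 8 of 9 mesenchymal markers rose. Their part was not tested.

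With Bis-I 2 members rose and 4 fell (10.2% and 32.3%). LIX1, at 0.660, 1.96 and 6.74 TPM, was at 17.7% to 73.4% of the control mean and differed by -0.98 ± 0.09 (limma adjusted p = 1.95e-18). PAX6, at 3.17, 6.20 and 9.91 TPM, differed by -0.55 ± 0.07, and SOX9, at 66.9, 103 and 138 TPM, by -0.34 ± 0.06. NES rose by 0.31 ± 0.04 and SOX1 by 0.20 ± 0.05. PROM1 was 2.22 and 2.41 times the control mean on days 8 and 10 and 0.19 and 0.18 times on days 21 and 27, and its difference over all days, -0.29 ± 0.12, was not called without libraries of steep slope (-0.15).

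The window comparison asked where a compound's difference from controls was not the same on days 8 to 39 as on days 1 to 6. Late minus early was called for 7 members with trans retinoic acid (35.6% of all tested genes), 6 with isotretinoin (28%), 3 with U0126 (8.33%), 7 with PD166866 (37.6%), 6 with K252a (21.8%), 5 with Bis-I (21.2%), 6 with hydroxyurea (21.5%) and 2 with dexamethasone (5.55%). It was also called for 7 with monosodium glutamate (41.3%), whose day 1 library had a steep slope, 5 with lead acetate (17.3%), 3 with amiodarone (17.8%), 3 with carbamazepine (2.09%), 2 with benzene (11.4%) and 1 with dioxin (16.6%). MSI1 was among those called upwards with K252a (0.53 ± 0.05), hydroxyurea (0.48 ± 0.06), Bis-I (0.37 ± 0.06) and PD166866 (0.19 ± 0.05), as with the retinoids. These comparisons share their controls, whose late values are those of days 8 to 39. Late minus early of MSI1 and PAX6 was above 0 with every toxic compound compared by window, called or not. It ran from 0.05 (permethrin) to 0.63 (trans retinoic acid) for MSI1 and from 0.08 (dioxin) to 0.95 (hydroxyurea) for PAX6. Whether these shifts belong to single compounds or to the toxic class was not tested.

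The 6 compounds with 1 to 4 members called over all days had no member with a difference of 1 or more in size in that fit. Dexamethasone (100 µM), a glucocorticoid, was called for 4 (13.5% of all tested genes), and its 11 libraries gave FABP7 0.37 ± 0.05 and PROM1 -0.74 ± 0.10. FABP7 with it was 324 TPM on day 1, or 2.48 times the control mean, and 1.05 times on day 39, while PROM1 was 22.5% to 31.7% of that mean from day 15 on. On days 8 to 39 taken alone 1 member rose and 2 fell with dexamethasone, PROM1 lowest at -1.12 ± 0.12. In that window 873 of 16318 tested genes rose and 1782 fell. Lead acetate (30 µM) had 4 called (42.1%), NES highest at 0.33 ± 0.03 and PAX6 lowest at -0.35 ± 0.07. Amiodarone (1 µg/ml) had FABP7 alone (22.7% of all tested genes), at 0.36 ± 0.04 and above the range on 10 of 11 days, and on days 1 to 6 taken alone NES (-0.15 ± 0.04) and MSI1 (-0.14 ± 0.04) were called as well (2.14%). Carbamazepine (10 µg/ml) had SOX1 alone over all days (4.9%), at 0.18 ± 0.04. On days 8 to 39 taken alone 6 members rose with it (4.65% of all tested genes), namely SOX1 (0.25 ± 0.05), SOX2 (0.26 ± 0.08), SOX9 (0.20 ± 0.07), PAX6 (0.43 ± 0.09), NES (0.11 ± 0.03) and FABP7 (0.22 ± 0.05). Dioxin (3 nM) had SOX9 and VIM (16.9%), at -0.17 ± 0.05 and -0.16 ± 0.06, joined on days 8 to 39 by NES at 0.08 ± 0.03 (41.5%), and thalidomide (100 ng/ml) FABP7 and LIX1 (9.17%), at -0.13 ± 0.04 and -0.27 ± 0.09.

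Over all days no member was called with benzene (6.33% of all tested genes called), monosodium glutamate (8.38%), diazinon (2.3%), permethrin (1.02%), 2-imidazolidinethione (0.484%), propylthiouracil (0.172%), bioallethrin (0.165%) or L-phenylalanine (0.0613%). Doses were 50 µg/ml for benzene, 150 µM for monosodium glutamate, 10 µM for diazinon, 2.5 µM for permethrin and 0.4 mM for 2-imidazolidinethione. Propylthiouracil was given at 25 µg/ml, bioallethrin at 10 nM and L-phenylalanine at 1 mM. At an unadjusted limma p under 0.05 there were 4 members with benzene (25.8% of all tested genes), 4 with monosodium glutamate (32.7%) and 3 with permethrin (16.8%). There were 2 each with diazinon (14.7%), 2-imidazolidinethione (9.92%), propylthiouracil (8.56%) and bioallethrin (8.77%), and 0 with L-phenylalanine (9.1%), none past 0.24 in size. Within a window there were calls. On days 8 to 39 5 members were called with benzene (29.6%), PROM1 lowest at -0.37 ± 0.11 and MSI1 highest at 0.20 ± 0.04, and PROM1 fell with diazinon (-0.43 ± 0.11, 3% of all tested genes fell) and permethrin (-0.35 ± 0.10, 5.12%). On days 1 to 6 8 members were called with monosodium glutamate (51.5%), SOX2 lowest at -0.63 ± 0.13. That window of monosodium glutamate included its day 1 library of steep slope, where SOX2 measured 36.7 TPM, against 274 to 310 in controls, and MSI1 33.0% of the control mean. From day 2 on its SOX2 was 0.71 to 1.24 times that mean.

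Maneb (60 µM), a fungicide, gave 1 library, on day 1, and was not tested. SOX1 (28.8 TPM), SOX2 (71.5), SOX9 (33.0), PAX6 (1.78), NES (481), MSI1 (64.9) and PROM1 (7.97) lay below the non-toxic range of that day. VIM (3241) lay inside it, and FABP7 (585, against at most 144) and LIX1 (4.25, against at most 3.24) above. It was also the library with the steepest length slope.

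The classes were compared with 1 value per compound, its mean deviation from controls. On days 1 to 6 (28 toxic against 16 non-toxic compounds) no member was called at an adjusted p under 0.05, where 0.582% of all tested genes were. Of the 10 members 6 had an unadjusted limma p under 0.05, as had 25.5% of all tested genes. PAX6 came closest, with -0.61 ± 0.16 (limma adjusted p = 0.0565, 95% interval -0.93 to -0.29). On days 8 to 39 (21 against 12) MSI1 rose by 0.11 ± 0.03 (limma adjusted p = 0.0133), where 5.09% of all tested genes rose, and it was not called without days 15 and 21 (0.07) or with the length slope as a covariate (0.10).

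On single days many toxic libraries lay outside the non-toxic range on the same side. PAX6 lay below the non-toxic range in 16 of 29, 14 of 28, 23 of 28, 20 of 28 and 18 of 28 toxic libraries on days 1, 2, 3, 4 and 6, and in none of these above it. On day 10 15 of 21 lay above it. MSI1 lay below the range in 26 of 28 toxic libraries on day 4 and above it in 20 of 21 on day 15. Such counts were not particular to PAX6 and MSI1. NES lay below the range in 27 of 29 toxic libraries on day 1, and SOX9 in 24 of 29 on day 1 and 24 of 28 on day 4. The share over all tested genes was not counted. The range rested on 16 non-toxic libraries on each of days 1 to 4 but on 7 on day 15, and a range of fewer libraries is easier to leave. Toxic and non-toxic libraries carry different title series in the labels, so the class and any difference in handling between them cannot be told apart.

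**Figure D5:**
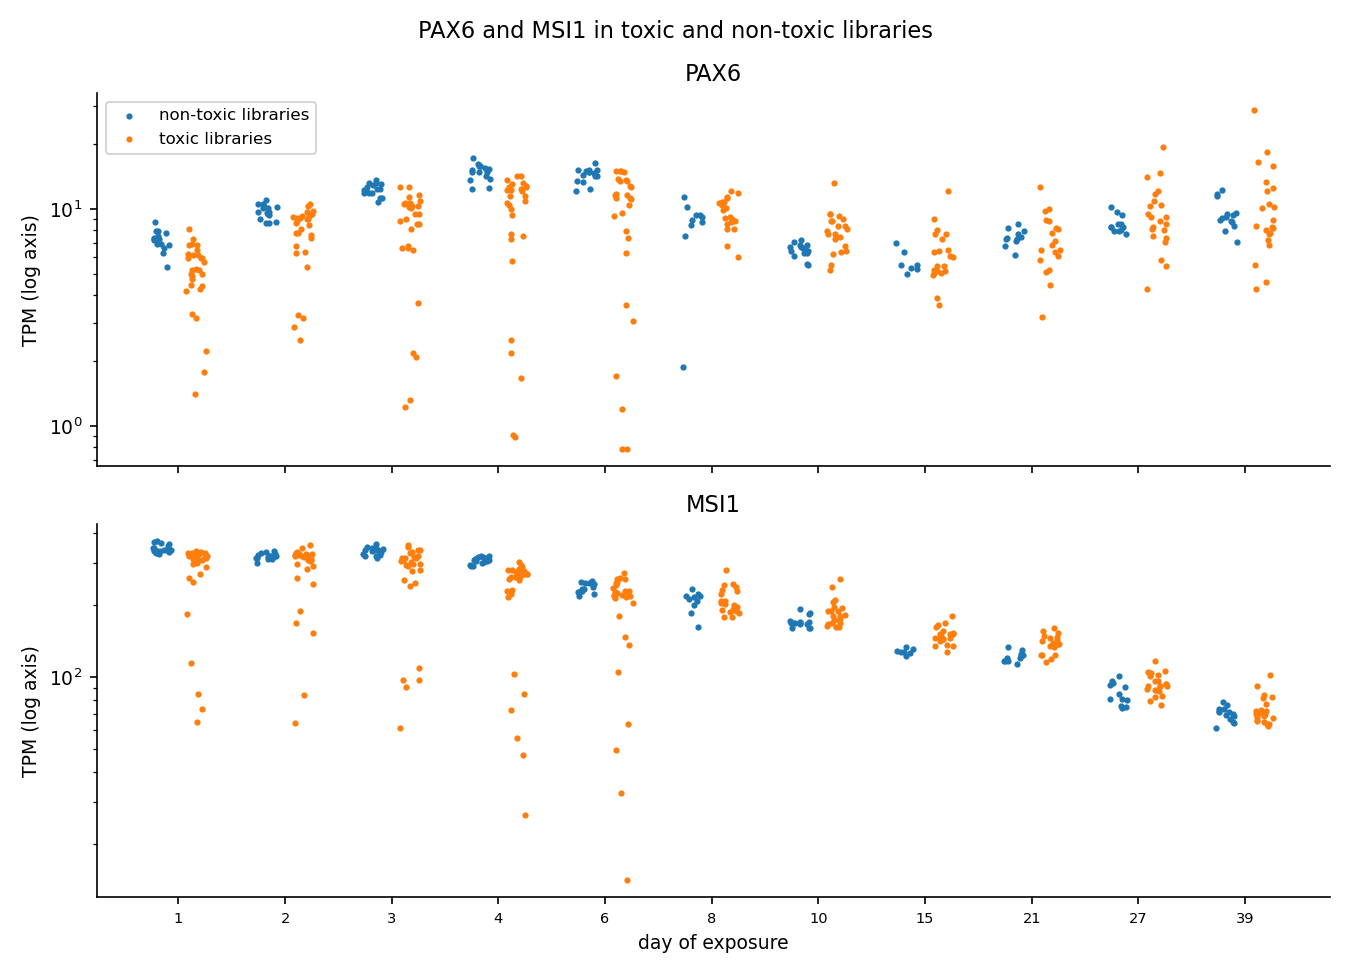
TPM on a log axis of PAX6 and MSI1 by sampling day in non-toxic (blue) and toxic (orange) libraries, 1 point per library. Toxic libraries reach below the non-toxic ones for PAX6 on days 1 to 6, and for MSI1 they lie almost all below them on day 4 and above them on day 15.

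Across the 266 toxic libraries, deviations from the controls of the day moved together for some members. Pearson's r was 0.91 between SOX1 and NES, 0.86 between SOX2 and SOX9 and 0.85 between SOX1 and MSI1, and -0.36 between VIM and LIX1. Among 10320 others with a mean of at least 10 TPM, genes most like a member were HNRNPR for SOX2 (0.89), EDNRB for SOX9 (0.90), GAS1 for PAX6 (0.85), IRX5 for NES (0.84), RHOA for VIM (0.78), C1orf61 for FABP7 (0.70), MAZ for MSI1 (0.93), SMAD3 for PROM1 (0.72) and MPPED2 for LIX1 (0.69). ZNF219 was among the 3 most alike for SOX1, NES and MSI1. The libraries share compounds, days and controls, so these values are descriptions. The 266 include the vincristine library of day 4 and the toxic libraries of steep slope, and r was not computed without them.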

How the data were processed

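RNA from 414 wells was sequenced after TruSeq RNA v2 preparation, per the labels. Reads were processed with CASAVA 1.8.2, Bowtie 0.12.8 and RSEM 1.2.1 on hg19, per the submitters' processing notes. The authors deposited TPM per gene symbol, with column sums between 999999 and 1000001, and all columns were used. TPM keep no read depth, and a gene's TPM moves with the other genes of its library.

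Groups came from the compound, class and day in the labels. TPM were transformed as log2(TPM + 1). A gene entered the test when 5 or more libraries had it at 1 TPM or more (16318 genes). The tool was limma 3.58.1 (R 4.3.3, data.table version 1.17.8, trended prior), with Benjamini-Hochberg adjustment over all of them and a threshold of 0.05. Days were contrasted within the non-toxic class. A compound's effect was estimated beside day effects, and libraries of one compound were given a common correlation of 0.0212. That correlation was estimated in the non-toxic libraries only. The class comparison used 1 mean deviation per compound, and the retinoids were compared with day as a factor. Alternatives were other pseudocounts (0.1 and 5), no filter, median centring, no block, omitted libraries and a length slope as a covariate. That slope used GENCODE 29 lengths for 9613 (93.1%) of the 10328 genes whose mean reached 10 TPM. The fits were tested on simulated data. Figures and summaries used Python 3.11.15, numpy 2.4.6, pandas 2.3.3 and matplotlib 3.10.9.

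The members, the companion and marker lists and the tests were chosen with earlier results of these data known. All 10 members are named in the time and class comparisons. For compounds with at least 5 members called, the 3 largest called differences each way are given with values, and for other compounds any called member past 1 in size. The genes most like a member are those of highest Pearson r. The closest gene to SOX1 and 1 companion gene are not reported here.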

Additional observations from a re-analysis of the deposited data

Results flagged for a closer look

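In groups of 4 to 10 samples the highest or lowest library was compared with its neighbour by Dixon's criterion, which chance alone meets in about 1 of 20 groups. Of 20 groups of member values tested, 8 met it, all on day 8, when 10 non-toxic libraries were at hand. In 7 of them the library that stood apart was ibuprofen. It measured 30.96 TPM for SOX1 (51.0 to 61.8 in the other 9), 29.58 for SOX2 (119 to 148.2), 37.1 for SOX9 (90.6 to 120), 1.88 for PAX6 (7.51 to 11.4), 600.12 for VIM (2022 to 2318) and 0.79 for LIX1 (4.07 to 5.81), each below the others. FABP7 at 518.95 TPM lay above them (306 to 363). For NES the library was amoxicillin, at 646.38 TPM. The ibuprofen library also had a length slope of -0.438, whose part in these values was not tested.

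Late minus early was read here for 8 compounds, and 6 others also had called members. For these 8 the difference from controls itself differed between days 8 to 39 and days 1 to 6, by limma's test of late minus early, in 42 of 80 member values. Under trans retinoic acid these were SOX1 (-0.39), PAX6 (0.71), NES (-0.34), FABP7 (0.55), MSI1 (0.63), PROM1 (2.14) and LIX1 (0.77). Under isotretinoin they were PAX6 (0.77), NES (-0.46), FABP7 (0.63), MSI1 (0.49), PROM1 (1.92) and LIX1 (0.84). With K252a all were upwards, SOX1 (0.87), SOX2 (0.37), SOX9 (0.30), PAX6 (0.71), NES (0.65) and MSI1 (0.53). With hydroxyurea they were SOX1 (0.38), PAX6 (0.95), NES (0.39), FABP7 (-0.34), MSI1 (0.48) and PROM1 (0.73), and with Bis-I SOX2 (-0.38), NES (0.41), MSI1 (0.37), PROM1 (-0.76) and LIX1 (-0.48). PD166866 had SOX2 (-0.26), SOX9 (-0.36), PAX6 (0.24), VIM (-0.39), FABP7 (-0.34), MSI1 (0.19) and PROM1 (-0.65). U0126 had PAX6 (0.70), NES (0.15) and PROM1 (-0.60), and dexamethasone FABP7 (-0.51) and PROM1 (-0.82). After median centring FABP7 with hydroxyurea (-0.29), SOX2 with PD166866 (-0.17) and NES with U0126 (0.09) were no longer called, nor was LIX1 with Bis-I at a pseudocount of 0.1 (-0.33). The compounds share their controls, and PAX6 and MSI1 were above 0 with every toxic compound compared by window. Whether their shifts belong to single compounds was not tested.

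The maneb library of day 1, which entered no test, had FABP7 at 584.72 TPM and LIX1 at 4.25 TPM, above the highest non-toxic library of that day.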

How the results depend on the processing

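Of 1667 values recomputed for 211 called values, 1605 kept their direction and their side of the threshold, 50 kept the direction but lost the call and 12 turned, and 169 called values did neither under any alternative run. After median centring NES from day 10 to day 21 was -0.007, cadmium gave 0.165 for VIM, 0.508 for FABP7 and 0.171 for PROM1, and vincristine gave 0.024 for PROM1. With the length slope as a covariate arsenic gave -0.059 for VIM, and okadaic acid 0.057 for SOX2, 0.311 for NES and 0.149 for PROM1, with 4 members called. On days 1 to 6 a pseudocount of 5 gave 1 member called between classes. Without days 15 and 21 the late class comparison gave 0, where 1 had been called. Without a day term the retinoid pair gave 0. Without libraries of steep slope late minus early was called for 5 members with U0126 and 4 with dexamethasone, and 0 remained for ibuprofen, an alternative chosen after the data were seen. The cause was not tested.

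Leaving out each library in turn moved vincristine values from -0.925 to 0.126 for SOX2, -0.724 to 0.161 for NES, -0.342 to 0.052 for PROM1, -0.67 to -0.058 for SOX1 and 0.059 to 0.792 for LIX1, where day 4 decided the end nearer 0 for LIX1 and SOX1 and the turn for the others. For cadmium the ranges were -0.248 to -0.015 for FABP7 and -0.906 to -0.23 for PROM1, for okadaic acid -0.233 to -0.01 for NES, and for busulfan 0.043 to 0.206 for VIM. No paired analysis was possible because the replicate numbers only name libraries in accession order, and libraries were matched only through day as a factor. Depth is unknown, so counting error at low TPM (PAX6, LIX1) could not be set beside the spread between wells.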
